A study of Mus musculus with 8 samples.

Results

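The genes described here encode the extracellular part of WNT signalling: the WNT ligands, the proteins that make ligands ready for secretion, the frizzled receptors, their LRP co-receptors and the secreted antagonists. The set held 43 of 21627 mouse protein-coding genes, chosen by symbol and not by any measured value: 19 Wnt genes, Porcn and Wls for secretion, Fzd1 to Fzd10, Lrp5 and Lrp6, and 10 antagonists (Sfrp1, Sfrp2, Sfrp4, Sfrp5, Dkk1 to Dkk4, Wif1 and Notum). The data are from ATAC-seq, an assay that reads chromatin accessibility from the places where a transposase could insert sequencing adapters. Overlapping peaks of 4 peak lists were merged into sites, and a site belonged to a gene when that gene's span was the nearest protein-coding span within 100 kb of the peak midpoints. By this rule 374 of 114956 sites belonged to the 43 genes, and every gene had at least 1 site.

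A WNT protein is acylated by Porcn in the endoplasmic reticulum and carried to the cell surface by Wls. It then binds a frizzled receptor together with Lrp5 or Lrp6, which lets β-catenin accumulate and act with TCF and LEF factors in the nucleus. SFRP proteins and Wif1 bind the ligand itself, Notum removes its acyl group, and Dkk1, Dkk2 and Dkk4 act on the co-receptors. In the hair follicle, low WNT activity is a property of the resting stem cells, and WNT activity starts and sustains the growth phase and the differentiation of the hair shaft.

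The lists came from 4 populations sorted from mouse back skin of mixed sex, with 2 samples pooled in each list. Bulge stem cells and hair germ cells were taken from Lgr5-eGFP-ires-CreER mice at the second telogen, the resting phase, at postnatal day 55. Both had been sorted as GFP+, Itga6+ and Itgb1+, with CD34 present on bulge cells and absent from hair germ cells. Basal transient amplifying cells (TACs, which divide to build the growing hair) came from mice of the strain Lgr5-eGFP-ires-CreER at postnatal day 30 and had been sorted as GFP-, CD34-, Itgb1 high, Pcad+ and SCA1-. Suprabasal TACs came from K14-H2BGFP mice at postnatal day 30, sorted as GFP low, Itga6- and CD34-. The Lgr5 allele places GFP and a tamoxifen-dependent Cre under the Lgr5 locus, and the K14 promoter drives the histone-GFP fusion in basal cells of the epithelium. Hair cycle phase and age coincided and cannot be told apart, and strain also differed between suprabasal TACs and the other populations.

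From bulge to suprabasal TAC, in order of the lineage, the lists rested on 24065469, 11053351, 30824845 and 47852893 fragments. The hair germ library thus had 23.1% of the depth of the deepest one. In the same order the lists held 61348, 54702, 74736 and 70230 sites of all genes and regions. Counts of sites per list below are not scaled for this size. Because both samples of a population were pooled before peak calling, no value has a replicate error, and no test between populations was possible. Intervals are exact 95% binomial (Clopper-Pearson) intervals that cover counting error only. Sites of 1 gene share a neighbourhood and are not independent, so true uncertainty is wider. Sites of 6 bulge marker genes (Cd34, Krt15, Nfatc1, Lhx2, Sox9, Lgr5) numbered 85, 72, 58 and 52 in the order bulge, hair germ, basal TAC, suprabasal TAC. Sites of 6 TAC and matrix genes (Lef1, Msx1, Msx2, Hoxc13, Shh, Dlx3) numbered 33, 41, 71 and 92. Sites of 6 inner root sheath and hair shaft genes numbered 23, 17, 27 and 44. The 3 genes listed for the hair germ (Cdh3, Lgr5 and Lef1) held 38, 37, 44 and 47, fewest in the hair germ itself. Lgr5 (21, 17, 16 and 7) counts among both the bulge and the hair germ genes. Lef1 (5, 10, 18 and 27) counts among both the hair germ and the TAC genes. The marker counts are therefore not separate checks, and CD34 and Lgr5-driven GFP were also used in the sort. Not every bulge marker had most sites in the bulge: Lhx2 had 13, 13, 11 and 15, and Sox9 had 10, 12, 7 and 7.

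The WNT genes had rich neighbourhoods. The median was 7 sites per gene, against 3 over the 16786 genes that had any site, and Wnt7b (27 sites), Sfrp1 (26), Lrp6 (25) and Fzd10 (23) had the most. The shares of genes with more or fewer sites given below were not matched for number of sites. A gene with fewer than 3 sites cannot differ by 3, so the set could stand above all genes in either direction for that reason alone. Sites of the set numbered 225 in the bulge list, 202 in the hair germ, 239 in basal TACs and 267 in suprabasal TACs. As a share of all peaks of the list, peaks of the set made up 0.372%, 0.375%, 0.320% and 0.383% in that order, lowest in basal TACs. A larger share lay outside the gene span than usual, since 44.4% of the set's sites were inside a span, against 62.2% of all sites with a gene. That share differed by role: 84.6% for the co-receptors, which are long genes, 52.8% for the ligands, 41.4% for the antagonists and 13.5% for the frizzled genes, most of which are short. The frizzled gene with the most sites, Fzd10, spans 2.99 kb, and no midpoint of its 23 sites fell inside it.

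**Figure D1:**
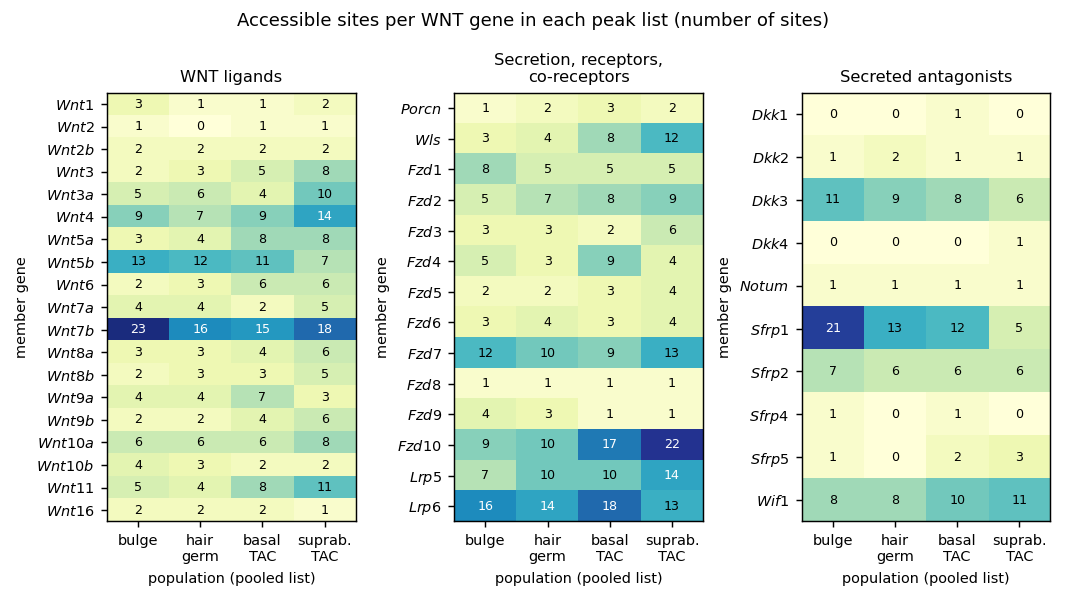
Number of accessible sites belonging to each of the 43 WNT genes (rows, by role) in the peak list of each population (columns, from bulge to suprabasal TAC); darker cells hold more sites. Fzd10 (9, 10, 17 and 22 sites) and Wls (3, 4, 8 and 12) had most sites in suprabasal TACs, and Sfrp1 (21, 13, 12 and 5) had most in the bulge.

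Of the 374 sites, 129 (34.5%, interval 29.7 to 39.6) were present in all 4 lists, against 27.3% of all sites. Sites held by TAC lists alone numbered 123 (32.9%, interval 28.1 to 37.9), against 40.8% of all sites, and sites held by telogen lists alone numbered 52 (13.9%, interval 10.6 to 17.8), against 15.9%. The widest gap was in sites of the basal TAC list alone, which made up 6.42% of the set's sites and 14.5% of all sites. Sites of the suprabasal TAC list alone made up 17.4% of the set's sites and 15.5% of all sites. Common sites were long, with a median of 1212 bp, while the telogen-only sites had a median of 452.5 bp and the TAC-only sites 484 bp.

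**Figure D2:**
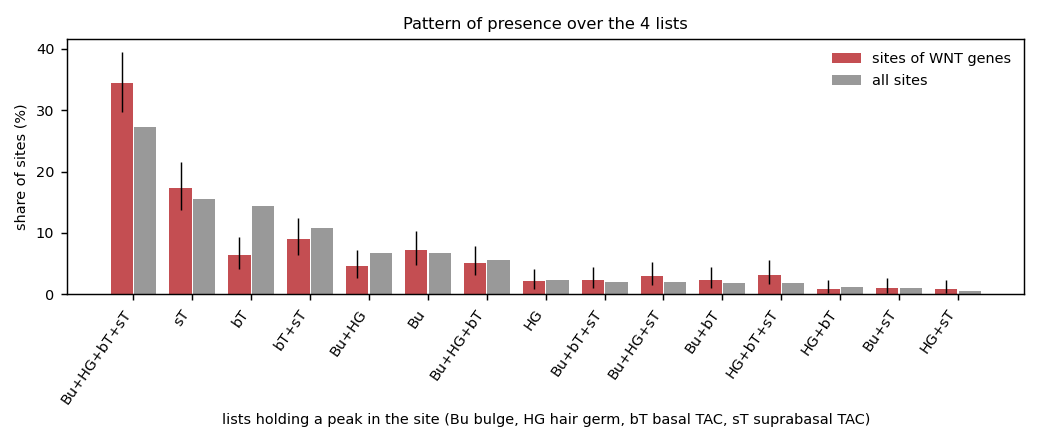
Share of sites (%) in each of the 15 patterns of presence over the 4 lists, for the 374 sites of WNT genes (red, with exact 95% binomial intervals for counting error) and for all 114956 sites (grey). The WNT genes had more sites common to all lists (34.5% against 27.3%) and fewer held by basal TACs alone (6.42% against 14.5%).

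Site counts are given by role, with the gene of most sites in a role left out where named, a choice made after the values were seen. Ligand genes held 95 sites in the bulge list, 85 in the hair germ, 100 in basal TACs and 123 in suprabasal TACs. Receptor genes followed the same order of lists, with 52, 48, 58 and 69 sites, but without Fzd10 they had 43, 38, 41 and 47. The secretion genes Porcn and Wls together had 4, 6, 11 and 14 sites. Of their 15 sites 9 (60.0%) were found in TAC lists alone, against 40.8% of all sites. The co-receptors had 23, 24, 28 and 27 sites. The antagonists had most sites in the bulge (51), then 39 in hair germ cells, 42 in basal and 34 in suprabasal TACs. This order rested on Sfrp1, and without it the other 9 antagonist genes had 30, 26, 30 and 29 sites along the series. Of the 70 antagonist sites, 21 (30.0%) were found in telogen lists alone, against 15.9% of all sites and 16 of 161 ligand sites (9.94%). Of those 21, however, 13 belonged to Sfrp1. Without Sfrp1, 8 of 44 antagonist sites (18.2%) were telogen-only, near the 15.9% of all sites, and 4 of those 8 belonged to Dkk3.

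Hair germ cells were first set against bulge cells, both in telogen. Of 75 sites held by only 1 of these lists, 26 were in the hair germ list alone and 49 in the bulge list alone, so the hair germ share was 34.7% (interval 24.0 to 46.5), close to the 33.5% of all changed sites. Among all sites of these 2 lists, 9.92% were held by the hair germ list alone and 19.7% by the bulge list alone. More sites in the hair germ were found for 12 of the 43 genes and fewer for 17, while over all genes 12.6% had more and 27.9% fewer. This direction turned with absence scaled for depth, which counts a site as missing from a list only where its coverage in the other list, scaled by the ratio of total fragments, would have reached the lower quartile of peak coverage there. Then 10 genes had more sites in the hair germ and 7 fewer, against 9.06% and 11.3% of all genes, and the share was 45.2% (45.0% over all sites). With equal numbers of peaks the share was 49.4% (46.8% over all sites), and with only peaks of −log10 q-value 10 or more it was 18.8% (15.0% over all sites).

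A difference of at least 3 sites between hair germ and bulge was found for 4 genes, and over all genes 0.739% had at least 3 more and 5.19% at least 3 fewer. The antagonist gene Sfrp1, known to be expressed by bulge cells, had 13 in the hair germ list and 21 in the bulge list. Wnt7b, a ligand known to act in hair cycle activation, had 16 in the hair germ and 23 in the bulge, and Fzd1 had 5 and 8. These 3 had fewer sites in the hair germ also with the stricter q-value, with equal numbers of peaks and with absence scaled for depth. At the last setting the difference was 5 sites for Sfrp1, 2 for Wnt7b and only 1 for Fzd1. For the co-receptor gene Lrp5 the hair germ list held 10 and the bulge list 7, but with the stricter q-value the bulge list held 2 more.

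Basal TACs were then set against hair germ cells, across the change from rest to growth. Of 115 changed sites, 76 were in the basal TAC list alone and 39 in the hair germ list alone, a basal TAC share of 66.1% (interval 56.7 to 74.7), against 71.3% of all changed sites. Among all sites of these lists the basal TAC list alone held 38.0% and the hair germ list alone 15.2%. More sites in basal TACs were found for 20 genes and fewer for 12, against 47.6% and 12.8% of all genes. The share was 44.2% with equal numbers of peaks (51.9% over all sites) and 45.6% with absence scaled for depth (53.0% over all sites), so the excess in basal TACs was lost with both settings. Counted by gene with absence scaled for depth, 12 had more sites in basal TACs and 16 fewer, against 22.9% and 18.7% of all genes.

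At least 3 more sites in basal TACs were found for 8 genes and at least 3 fewer for none, against 15.7% and 1.61% of all genes. Fzd10 had 17 sites in basal TACs and 10 in the hair germ. Fzd4, a frizzled that also binds norrin, had 9 in basal TACs and 3 in the hair germ. Wls had 8 in basal TACs and 4 in the hair germ, and the same numbers were found for Wnt11 and Wnt5a, ligands best known for β-catenin-independent signalling. Wnt6 had 6 in basal TACs and 3 in the hair germ, and Wnt9a had 7 and 4. These 7 genes kept their direction with the stricter q-value, with equal numbers of peaks and with absence scaled for depth. At the last setting the difference was 5 sites for Fzd4, 4 for Fzd10 and 2 for Wnt9a. It was only 1 for Wls, Wnt11, Wnt5a and Wnt6. Lrp6, with 18 sites in basal TACs and 14 in the hair germ, had 1 fewer in basal TACs at equal numbers of peaks.

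Within anagen, suprabasal TACs were set against basal TACs. Of 138 changed sites, 83 were in the suprabasal list alone and 55 in the basal list alone. The suprabasal share of 60.1% (interval 51.5 to 68.4) stood above the 45.4% of all changed sites. Among all sites of these lists 22.7% were in suprabasal TACs alone and 27.4% in basal TACs alone. More sites in suprabasal TACs were found for 22 genes and fewer for 10, against 30.9% and 30.6% of all genes. With absence scaled for depth the share was 34.2% against 20.2% over all sites, and with the stricter q-value it was 46.5% against 33.7%. Counted by gene, 10 had more sites in suprabasal TACs and 13 fewer with absence scaled for depth, against 10.2% and 39.3% of all genes. The direction of the share therefore turned with both settings, while the WNT genes stood above all sites in each of them and also at equal numbers of peaks (61.6% against 49.2%).

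By role, the suprabasal share was 67.2% for ligands (45 sites against 22), 70.4% for receptors (19 against 8), 47.1% for co-receptors (8 against 9), 80.0% for secretion genes (4 against 1) and 31.8% for antagonists (7 against 15). Without Sfrp1 the antagonist share was 46.2% (6 against 7). The ligand direction turned with absence scaled for depth, with 13 sites in suprabasal TACs alone against 20 in basal TACs alone. At that setting receptors had 10 against 8, co-receptors 2 against 8, secretion genes 0 against 1 and antagonists 1 against 13. Fzd10 alone gave 4 against 0 of these receptor sites, so the receptor direction rested on it. Sfrp1 gave 0 against 7 of the antagonist sites. At least 3 more sites in suprabasal TACs were found for 11 genes (25.6%) and at least 3 fewer for 5 (11.6%). Over all genes the shares were 6.77% and 9.03%, not matched for number of sites. Wnt3a, a ligand of the β-catenin pathway, had 10 sites in suprabasal TACs and 4 in basal TACs. Wnt4 had 14 and 9 in the same order, Fzd10 22 and 17, Fzd3 6 and 2, Lrp5 14 and 10, and Wnt7a 5 and 2. These 6 kept their direction under the same 3 settings. With absence scaled for depth the difference was 4 sites for Fzd10, 2 for Fzd3, Lrp5 and Wnt7a, and only 1 for Wnt3a and Wnt4. Wnt7b turned with the stricter q-value, and Fzd7, Wls, Wnt11 and Wnt3 came out equal under at least 1 setting. Fewer sites in suprabasal TACs were found for Sfrp1 (5 against 12 in basal TACs), Fzd4 (4 against 9), Lrp6 (13 against 18), Wnt5b (7 against 11) and Wnt9a (3 against 7), and all 5 kept that direction.

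**Figure D3:**
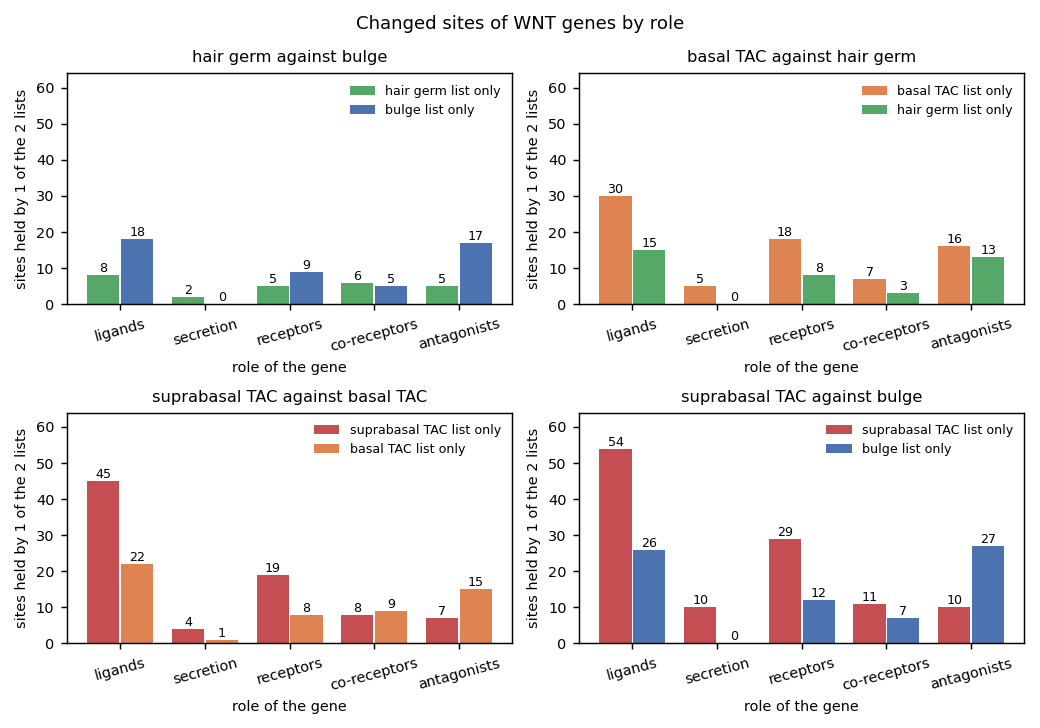
Number of sites (vertical axis) held by only 1 of the 2 lists compared, by role of the gene, in the 4 comparisons; colours mark the list that held the site. Between suprabasal TAC and bulge, ligands had 54 sites in suprabasal TACs alone against 26 in the bulge alone, and antagonists had 10 against 27.

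Suprabasal TACs and bulge cells, the ends of the series, had the most changed sites of the 4 comparisons. Of 186 changed sites, 114 were in the suprabasal list alone and 72 in the bulge list alone, a suprabasal share of 61.3% (interval 53.9 to 68.3), against 57.8% of all changed sites. Among all sites of these lists 34.9% were in suprabasal TACs alone and 25.5% in the bulge alone. More sites in suprabasal TACs were found for 23 genes and fewer for 14, against 43.4% and 21.6% of all genes. With absence scaled for depth the share was 40.0%, against 29.8% over all sites, and 17 genes had more sites in suprabasal TACs and 16 fewer, against 15.5% and 32.6% of all genes.

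By role, the suprabasal share was 67.5% for ligands (interval 56.1 to 77.6), 70.7% for receptors (54.5 to 83.9), 61.1% for co-receptors (35.7 to 82.7) and 27.0% for antagonists (13.8 to 44.1), and all 10 changed sites of the secretion genes were in suprabasal TACs. The antagonist share rested largely on Sfrp1, with 1 site in suprabasal TACs alone and 17 in the bulge alone. Without Sfrp1 the share was 47.4% (9 sites in suprabasal TACs against 10 in the bulge, interval 24.4 to 71.1). The receptor share without Fzd10 was 57.1% (16 against 12), and the ligand share without Wnt7b was 73.9% (51 against 18). With absence scaled for depth, ligands had 23 sites in suprabasal TACs alone against 26 in the bulge alone, and receptors 13 against 11. Co-receptors had 4 against 6, secretion genes 3 against 0, and antagonists 3 against 26. Fzd10 alone gave 10 against 0 of these receptor sites, so the receptor direction rested on it. Sfrp1 gave 0 against 16 of the antagonist sites.

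At least 3 more sites in suprabasal TACs were found for 15 genes and at least 3 fewer for 7, against 13.9% and 6.12% of all genes. The genes with more sites that kept this direction under all 3 settings were Fzd10, Wls, Lrp5, Wnt11, Wnt3, Wnt3a, Wnt5a, Wnt6, Wnt9b, Wnt8a and Fzd2. With absence scaled for depth the difference was 10 sites for Fzd10 but only 1 for Wnt3a, Wnt9b, Wnt8a and Fzd2. Wnt3, a ligand of the β-catenin pathway, had 8 sites in suprabasal TACs and 2 in the bulge, Wnt11 had 11 and 5, Wnt5a 8 and 3, and Wnt6 6 and 2. Wnt4 (14 and 9), Fzd3 (6 and 3), Wif1 (11 and 8) and Wnt8b (5 and 2) had equal numbers of changed sites in both lists once absence was scaled for depth. Fewer sites in suprabasal TACs were found for Sfrp1 (5 and 21), Wnt5b (7 and 13), Dkk3 (6 and 11), Wnt7b (18 and 23), Fzd1 (5 and 8) and Fzd9 (1 and 4), all of which kept the direction, and for Lrp6 (13 and 16), which turned with the stricter q-value. Wnt5a and Wnt5b, a closely related ligand pair, thus lay on opposite sides.

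**Figure D4:**
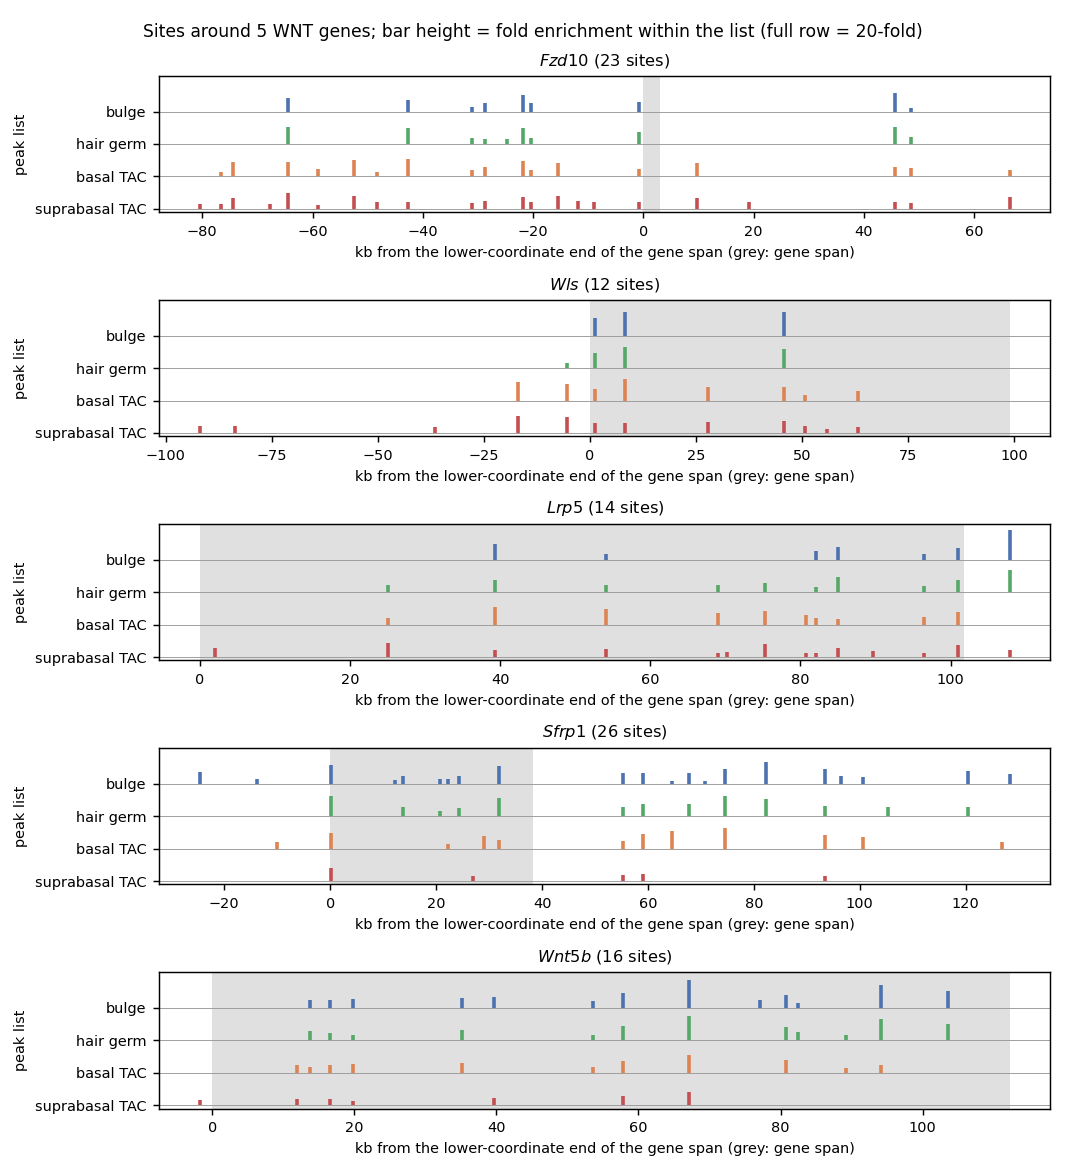
Positions of the sites of Fzd10, Wls, Lrp5, Sfrp1 and Wnt5b along the genome, in kb from the lower-coordinate end of each gene span (grey), with 1 row per peak list. Bar height is the fold enrichment over local background given by the authors' peak caller, on a scale where the full row is 20-fold; Fzd10 had 8 sites in both TAC lists that no telogen list held, and Sfrp1 had 6 in both telogen lists that no TAC list held.

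Sfrp1 lies on chromosome 8 with 26 sites, 4 of them common to all lists. One common site, at chr8:23410737-23412456 (mm10), covers the lower-coordinate end of the gene, with fold enrichments of 11.6, 12.4, 9.51 and 8.16 from bulge to suprabasal TAC. Fold enrichment is the authors' own score over local background; it ranks peaks within a list and is not compared between lists. The site at the gene was thus called in all 4 populations. Sites in both telogen lists alone numbered 6, sites in the bulge alone 6 and sites lacking from suprabasal TACs alone 2. The highest-ranked site among those that both telogen lists and no TAC list held was at chr8:23493268-23494015, 44.0 kb beyond the gene span, with a fold of 13.4 in the bulge (percentile 87.6 of that list) and 10.9 in the hair germ. A site at chr8:23484948-23486848 had no suprabasal peak, against folds of 9.24, 12.4 and 12.8 in bulge, hair germ and basal TACs. The 5 suprabasal sites were the 4 common ones and 1 weak site inside the gene at a fold of 3.42.

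Fzd10, on chromosome 5, was the reverse case. Its 9 common sites included the one over its start (fold 5.76, 7.06, 4.39 and 4.04 from bulge to suprabasal TAC). Another 8 sites were in both TAC lists alone, 5 in suprabasal TACs alone, 1 in the hair germ alone and none in the bulge alone. The highest-ranked TAC-only site, at chr5:128548133-128549115, lay 52.5 kb before the start with a fold of 9.91 in basal and 7.65 in suprabasal TACs. The nearest other protein-coding gene, Piwil1, is 132.0 kb from the span of Fzd10, so no closer gene span competed for these sites. Most of its sites lay far from the gene: within 20 kb of the span the lists held 1, 1, 3 and 6, from bulge to suprabasal TAC.

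Wls, on chromosome 3, had its 3 bulge sites inside the gene, at 1.11, 8.31 and 45.8 kb from its start, and these were open in all 4 populations. At chr3:159833549-159834817, 5.47 kb before the start, the hair germ had a weak peak (fold 3.34), basal TACs had a fold of 10.4 and suprabasal TACs 10.0. A second upstream site, at chr3:159821767-159823443, was in the TAC lists alone with folds of 11.6 (percentile 88.6) and 10.4 (percentile 93.8), the highest-ranked site among those that both TAC lists and no telogen list held at a WNT gene. A further 3 TAC-only sites common to both TAC lists lay inside the gene, at 27.8, 50.7 and 63.1 kb. Porcn, the other secretion gene, had 1, 2, 3 and 2 sites. A Porcn site at chrX:8216744-8218239 had no bulge peak, a fold of 4.66 in the hair germ and folds of 10.1 in both TAC lists.

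Among the co-receptors, Lrp5 had 7, 10, 10 and 14 sites along the series, none of them telogen-only. An intragenic site at chr19:3659570-3660758 had no bulge peak, against folds of 5.58, 8.58 and 8.16 in hair germ, basal TAC and suprabasal TAC. One site outside the gene, at chr19:3692436-3693019, ranked at percentile 99.3 of the bulge list with a fold of 18.3. It had a fold of 13.4 in the hair germ, no peak in basal TACs and a fold of 4.21 in suprabasal TACs.

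Ligand genes held both kinds of site. Wnt5b on chromosome 6 had 16 sites, 15 of them inside its 112.3 kb span. The one at chr6:119499339-119500075 ranked high in every list (fold 17.2, 15.3, 11.2 and 7.94 from bulge to suprabasal TAC), while chr6:119535626-119536673 was telogen-only with folds of 10.4 (bulge) and 10.3 (hair germ). Wnt9a had 2 strong sites in every list except the suprabasal one, the stronger at chr11:59334896-59336117 with folds of 13.1, 13.5 and 9.05 from bulge to basal TAC. Wnt7a had 2 sites in suprabasal TACs alone, the stronger at chr6:91324660-91325602 with a fold of 10.7 (percentile 94.7 of that list). Wnt4 had a TAC-only site at chr4:137212237-137212852 with folds of 12.6 in basal and 5.57 in suprabasal TACs. Wnt7b, with the most sites, had 11 of its 27 in all 4 lists, among them chr15:85634275-85635341 with folds of 12.2, 12.9, 13.9 and 10.3 from bulge to suprabasal TAC.

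Fzd4 had 5, 3, 9 and 4 sites along the series. It had 5 sites in basal TACs alone, from 5.07 to 45.8 kb beyond the lower end of its span, and the strongest, at chr7:89449776-89450489, had a fold of 8.28. Fzd9 had 4, 3, 1 and 1, and the site over its start was present in every list (fold 15.1, 12.8, 8.80 and 8.38). Antagonist genes with few sites were Dkk1 (1 site, in basal TACs), Dkk4 (1, in suprabasal TACs), Sfrp4 (1, in bulge and basal TACs) and Notum (1, in all lists). Wif1 had 8, 8, 10 and 11 sites, and Sfrp2 had 7, 6, 6 and 6. A further 10 genes differed by at most 2 sites between any lists: Fzd5 (2, 2, 3 and 4), Fzd6 (3, 4, 3 and 4), Fzd8 (1 in each), Wnt10a (6, 6, 6 and 8), Wnt10b (4, 3, 2 and 2), Wnt1 (3, 1, 1 and 2), Wnt2 (1, 0, 1 and 1), Wnt2b (2 in each), Wnt16 (2, 2, 2 and 1) and Dkk2 (1, 2, 1 and 1).

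Several ligand genes are neighbours, and their sites were divided between them by the nearest span. Wnt6 and Wnt10a are 6.70 kb apart, Wnt1 and Wnt10b 11.7 kb, and Wnt3a and Wnt9a 16.1 kb, and the spans of Wnt3 and Wnt9b overlap. The values of these genes are not independent of each other. In the overlapping pair both genes had more sites in suprabasal TACs than in the bulge (8 and 2 for Wnt3, 6 and 2 for Wnt9b), whereas Wnt3a (10 and 5) and Wnt9a (3 and 4) differed. Some spans also overlap genes outside the set: Wnt2b with St7l, Wnt5b with Fbxl14 and Fzd4 with Tmem135. Which gene a peak there serves was not tested. The peak over a Wnt5b start in bulge, hair germ and basal TACs was not among the sites of Wnt5b.

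Most gene starts had a peak at or near them in every population. An annotated start was at hand for 27 of the 43 genes (30 starts, RefSeq, GRCm38.p6, the same assembly as mm10). A peak covered a start in 17, 16, 19 and 18 of these genes from bulge to suprabasal TAC, or 63.0%, 59.3%, 70.4% and 66.7%. Over all 17273 genes with a start the shares were 56.7%, 55.5%, 58.0% and 56.9%. The start was covered in all 4 lists for 13 genes and in none for 6, against 52.0% and 38.6% of all genes with a start. With a peak allowed within 1 kb of the start, the counts were 21, 21, 23 and 24, against 61.1%, 60.7%, 63.6% and 63.4% of all genes, and 20 of the 27 genes (74.1%) had one in every list, against 58.1% of all genes. Among the covered starts of the set, Wif1 had the highest fold in every list (16.7, 14.0, 12.7 and 9.91 from bulge to suprabasal TAC). Wnt9b had 13.7, 10.2, 9.62 and 8.07, and Wnt2b had 10.9, 10.5, 4.93 and 4.58. Wnt6 had no peak over its start, but a bulge peak of fold 14.9 lay 50 bp from it.

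**Figure D5:**
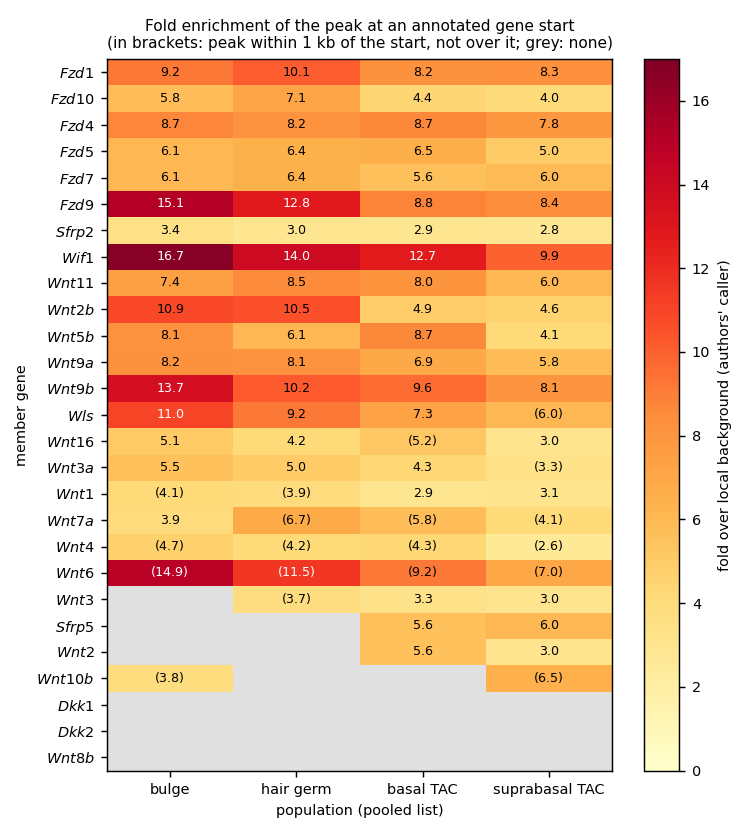
Fold enrichment (colour and number, as given by the authors' peak caller) of the peak at the annotated start of 27 WNT genes (rows) in each list (columns). Brackets mark a peak within 1 kb that does not cover the start, and grey marks none; where a gene has several starts the strongest peak over any of them is shown. Of the 27 genes 20 had a peak in every list, and Sfrp5 and Wnt2 had one in the TAC lists alone. At Wnt2 the merged site also held a bulge peak beyond 1 kb.

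A peak over the start in both TAC lists and in neither telogen list was found for 4 of the 27 genes (14.8%), Sfrp5, Wnt1, Wnt2 and Wnt3, against 1.57% of all genes with a start. Within 1 kb of the start it was found for 2 (7.41%), Sfrp5 and Wnt2, against 2.03% of all. The reverse, both telogen lists and no TAC list, was found for 0 of the 27 by either rule, against 0.718% of all genes over the start and 0.533% within 1 kb. None of these start calls was scaled for depth. The upstream sequences of the 4 genes are shown because their starts were covered in both TAC lists and in neither telogen list. Each runs 5′ to 3′ on the gene's strand and ends at the base before the start; capitals mark the motif AGATAA, the core bound by GATA factors. The regions are chr19:42202253-42202502 (minus strand) for Sfrp5, chr15:98789607-98789856 (plus) for Wnt1, chr6:18030446-18030695 (minus) for Wnt2 and chr11:103773925-103774174 (plus) for Wnt3.
Sfrp5: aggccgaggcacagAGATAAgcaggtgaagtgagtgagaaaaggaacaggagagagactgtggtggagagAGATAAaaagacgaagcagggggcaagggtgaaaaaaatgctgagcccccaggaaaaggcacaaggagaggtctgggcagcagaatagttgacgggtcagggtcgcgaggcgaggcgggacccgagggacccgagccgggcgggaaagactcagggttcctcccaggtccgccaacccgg
Wnt1: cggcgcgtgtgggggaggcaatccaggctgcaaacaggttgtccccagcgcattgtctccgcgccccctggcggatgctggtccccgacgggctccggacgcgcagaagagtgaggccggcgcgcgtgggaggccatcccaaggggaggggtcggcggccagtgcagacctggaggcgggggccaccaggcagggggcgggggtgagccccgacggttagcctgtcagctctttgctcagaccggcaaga
Wnt2: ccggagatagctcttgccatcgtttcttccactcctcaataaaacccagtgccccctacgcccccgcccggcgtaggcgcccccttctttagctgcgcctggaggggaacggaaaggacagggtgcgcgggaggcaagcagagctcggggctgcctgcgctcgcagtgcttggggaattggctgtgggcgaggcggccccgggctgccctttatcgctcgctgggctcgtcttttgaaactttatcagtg
Wnt3: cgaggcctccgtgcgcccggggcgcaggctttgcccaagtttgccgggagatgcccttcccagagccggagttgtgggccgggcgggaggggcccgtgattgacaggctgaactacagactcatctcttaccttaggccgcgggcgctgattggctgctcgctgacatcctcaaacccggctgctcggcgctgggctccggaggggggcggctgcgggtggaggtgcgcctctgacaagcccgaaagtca

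The 4 calls differed in how close the nearest telogen peaks lay, and none was scaled for depth. Among these 4 genes, only at Sfrp5 did the merged site over the start hold no telogen peak. The site held a bulge peak at Wnt1 and Wnt2 and a hair germ peak at Wnt3. Summit coverage in basal TACs was 28 at Sfrp5, 14 at Wnt1, 44 at Wnt2 and 27 at Wnt3. The hair germ library had 11053351 fragments against 30824845 in basal TACs, and the lower quartile of its peak coverage was 16. Whether depth accounts for the missing telogen peaks was not tested. At Sfrp5, whose product binds WNT ligands, the start had a peak in both TAC lists, with a fold of 5.57 and 28 fragments at the summit in basal TACs and 72 fragments at the summit in suprabasal TACs, not scaled for depth. The nearest telogen peak was 15287 bp away (bulge) or 28331 bp away (hair germ). At Wnt2 the fold was 5.57 in basal and 2.99 in suprabasal TACs. The nearest telogen peaks were 1233 bp away (bulge, in the same site) and 56918 bp away (hair germ). At Wnt3 the fold was 3.31 in basal and 3.02 in suprabasal TACs, the nearest hair germ peak ended 14 bp short of the start and the nearest bulge peak was 20757 bp away. At Wnt1 a bulge peak of fold 4.08 lay 3 bp from the start, so that call turns on the edge of a peak. The same holds for Wls and Wnt3a, whose suprabasal peaks lay 13 and 43 bp from a start that the other lists covered. Wnt7a was covered in the bulge alone, with a hair germ peak 35 bp away, and Wnt16 lacked only basal TACs, with a peak 371 bp away.

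The motif AGATAA was found at 2 places before the Sfrp5 start, 236 and 180 bases upstream, and not before the starts of Wnt1, Wnt2 and Wnt3. On either strand it was present in the 250 bases upstream of 8.84% of 21044 starts of all protein-coding genes and of 3 of the 30 starts of the set. CTTTGAA or CTTTGAT, the core bound by TCF and LEF factors, was present upstream of 6.77% of all starts and of 3 of the 30 (Dkk1, Wnt11 and Wnt5b). The AP-1 motif TGANTCA was present in 6.17% of all and 1 of the 30, and the RUNX motif TGTGGTT in 3.84% of all and 0 of the 30. None of these motifs overlapped another in the 4 sequences above. The upstream windows of the set were richer in G and C, with a median of 67.4% against 55.6% over all starts.

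For the 16 genes without an annotated start, a peak over either end of the span was looked for. Such a peak can lie at the 3′ end of a gene, and the share over all genes was not counted. These calls are therefore not comparable with the shares at starts. Both co-receptors, Fzd2, Fzd3, Fzd6, Fzd8, Porcn, Sfrp1 and Wnt10a had one in all 4 lists, and Dkk3 and Dkk4 had none. At Notum, which encodes an enzyme that inactivates WNT, an end peak was found in the hair germ (fold 10.8), basal TACs (9.25) and suprabasal TACs (5.02), and the bulge peak of the same site (7.68) stopped 38 bp short of the end. Wnt5a had one in the bulge (4.01) and basal TACs (4.91), with peaks of the same site 299 bp away in the hair germ and 268 bp away in suprabasal TACs. Wnt7b had one in every list except basal TACs, whose peak of the same site (9.38) lay 1146 bp away. Wnt8a had one in the TAC lists alone, but telogen peaks lay 48 bp (bulge) and 338 bp (hair germ) from its upper end. These 4 calls therefore turn on peak edges. Sfrp4 had one in the bulge (3.38) and basal TACs (7.67), and the nearest peaks were 3288 bp away in the hair germ and 3276 bp away in suprabasal TACs.

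Other genes of the pathway, 38 receptors, modifiers and intracellular components listed beside the set, held 392, 355, 472 and 492 sites along the series from bulge to suprabasal TAC. Between suprabasal TACs and bulge, 24 of the 38 had more sites and 9 fewer, against 43.4% and 21.6% of all genes. By at least 3 sites 17 had more and 3 fewer, against 13.9% and 6.12% of all genes. With absence scaled for depth, added after the data were seen, 16 had more and 16 fewer, against 15.5% and 32.6% of all genes. Lef1, the nuclear partner of β-catenin, held 5, 10, 18 and 27 in the same order, and Axin2, a target and feedback inhibitor of the pathway, had 15, 11, 16 and 21. Sostdc1, an antagonist outside the set, had 8, 7, 4 and 3, and Trabd2b, a protease that inactivates WNT ligands, had 50, 35, 35 and 25. These genes are examples, and inhibitors and effectors were not compared as groups. Not every inhibitor had fewer sites in suprabasal TACs: Kremen1 had 7, 5, 9 and 14, Apcdd1 7, 8, 8 and 12, and Znrf3 10, 12, 17 and 25. Nor did every nuclear factor have more: Tcf7 had 9, 8, 6 and 8, and Tcf7l1 18, 16, 24 and 16.

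Sites of genes of other skin cells also differed between lists. The 7 dermal fibroblast and papilla genes held 22, 13, 30 and 35 along the series, the 5 melanocyte genes 8, 6, 15 and 25, the 5 immune genes 5, 5, 12 and 12, and the 5 endothelial genes 35, 32, 40 and 23. Of the 7 dermal genes, 3 had more sites in suprabasal TACs than in the bulge, which were Dcn (1, 1, 6 and 10 along the series), Pdgfrb (1, 0, 4 and 5) and Corin (2, 2, 3 and 5). Col1a1 (6, 3, 4 and 5) and Col1a2 (6, 3, 6 and 4) had fewer, and Pdgfra (6, 4, 5 and 6) and Lum (0, 0, 2 and 0) had equal numbers. Several WNT genes are known from dermal papilla cells too, and the part of such cells in the site counts was not tested. Accessibility is not expression, and RNA levels of these genes were not analysed here.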

How the data were processed

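Chromatin accessibility of 4 sorted populations was given as 4 peak lists, each called by the authors on 2 pooled samples. Per the file headers, peaks were called with MACS 2.1.1.20160309 at a q-value cutoff of 0.05 on paired-end fragments, with local background taken over 10 kb. The submitters' processing notes also name Picard, Bowtie2 2.2.9 and mm10. A transposase shift of read ends was not given in the sources used here, which limits the precision of peak edges. The deposited columns used were the length in bp, the fragment coverage (signal, not scaled for depth), the −log10 p-value, the −log10 q-value and the fold enrichment, a ratio to local background.

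Peaks on chromosomes M and Y were left out. Peaks overlapping by at least 1 bp were merged into sites, which took the gene of most of their peaks. A peak took the nearest of 21627 RefSeq gene spans (GRCm38.p6) within 100 kb, and the shortest of several. The joining was tested on simulated data. Alternatives were a −log10 q-value of at least 10, equal numbers of peaks, 20 kb, 1 kb at starts, 50% overlap, the site midpoint and absence scaled for depth. Python 3.11.15 and SciPy 1.17.1 were used. Named were genes differing by at least 3 sites, starts covered in some lists and the 3 strongest sites per pattern; exceptions were chosen after their values were seen. The genes, lists and rules were chosen with earlier results of these data known.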

Additional observations from a re-analysis of the deposited data

How the results depend on the processing

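The following values moved beyond the counting interval of the reported share, or by over 1.5 times for a count. When peaks needed a −log10 q-value of 10 or more, the share of changed sites in the first-named list was 18.8% for hair germ against bulge, 78.9% for basal TAC against hair germ and 46.5% for suprabasal against basal TAC, 5 genes had more sites in the hair germ than in the bulge, and the hair germ list held 125 sites of WNT genes. With equal numbers of peaks the share was 49.4% for hair germ against bulge and 44.2% for basal TAC against hair germ. With absence scaled for depth it was 45.6% for basal TAC against hair germ, 34.2% for suprabasal against basal TAC and 40.0% for suprabasal TAC against bulge. At that setting 12 genes had more sites in basal TACs than in the hair germ, and 10 had more in suprabasal than in basal TACs. The cause was not tested. The other 44 planned values stayed within the interval or within 1.5 times, but the number of genes with more sites in the hair germ than in the bulge turned against the number with fewer when absence was scaled for depth (10 and 7, against 12 and 17 as reported). Among the 44 were all shares with sites limited to 20 kb, with 50% overlap, with the site midpoint and without the gene with most changed sites. Leaving out the gene with most sites of a role (Sfrp1, Fzd10 or Wnt7b) was added after seeing the data; 11 of 12 shares by role stayed within their interval, the exception being the antagonist share of 47.4% without Sfrp1 for suprabasal TAC against bulge. Depth limits detection, and the hair germ list rests on 23.1% of the fragments of the suprabasal list. Scaling absence for depth among other pathway genes, added likewise, gave 12 genes in place of 23 with more sites in basal TACs than in the hair germ, and 8 in place of 20 with more in suprabasal than in basal TACs. Leaving out a replicate could not be run, since each list pools both samples. No paired analysis was possible because the lists hold no separate samples.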
